A study of Mus musculus with 21 samples.

Results

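A set of 10 genes used as markers of blood stem cells, most of them surface proteins and many also active in blood vessel cells, was followed across sorted mouse bone marrow cells with and without Dot1l. The genes were Procr, F2r, Tek, Vldlr, Robo4, Esam, Cd34, Slamf1, Pdzk1ip1 and Fgd5, that is 10 of the 18194 genes with a probe set of their own. These genes had 19 of the 45101 probe sets on the array, counting each probe set annotated to 1 of them alone. For each gene the probe set brightest on average over all 21 arrays (mean log2 intensity) stands for it, and its other probe sets are given beside it. GMP-Dot were granulocyte-macrophage progenitors (GMP) from Dot1l fl/fl mice with Mx-Cre after PIPC injection, which deletes both Dot1l alleles (4 arrays). GMP-Control were the same progenitors from Dot1 wt/wt mice that also carried Mx-Cre and also received PIPC (5 arrays). LSK-Dot and LSK-Control were lineage-negative, Sca-1-positive, Kit-positive cells of the 2 genotypes (6 arrays each), the marrow fraction that holds stem and multipotent cells. All mice were of the C57/BL6 background; the sources used here give no ages. Mx-Cre is driven by an interferon-inducible promoter that is not restricted to blood stem cells, so recombination can also occur in other marrow cells. The sources used here name no markers for the GMP gate and do not state that every array came from a different animal, so p-values reflect only how much these samples vary. Arrays are named below by the K number in their titles.

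Blood stem cells and the endothelium arise from related precursors, and many of the genes followed here are known from both. Tek encodes the Tie2 receptor for angiopoietin-1, Procr the receptor for protein C and F2r the thrombin receptor PAR1. Vldlr encodes a receptor for reelin and apolipoprotein E, and Robo4 a receptor of the Slit and Unc5b signalling system that is best known from vessels. Esam is a junctional adhesion molecule, Cd34 a sialomucin of progenitors and vessels, and Slamf1 (CD150) a receptor of the SLAM family used to sort stem cells. Pdzk1ip1 encodes a small membrane protein that binds the scaffold PDZK1, and Fgd5 an exchange factor for the GTPase Cdc42.

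Some arrays stood apart before any comparison. GMP-Dot K1190 and K1272 were unusually alike, with a Spearman correlation of 0.982 over all probe sets and a median absolute difference of 0.198 on the log2 scale. The next closest pair of 1 group, LSK-Control K1601 and K1603, had 0.970 and 0.229. LSK-Dot K1272 had an upper quartile of 6.18, against 6.60 to 6.78 on the other LSK arrays, and correlated with the other LSK-Dot arrays at a Spearman mean of 0.684. Its level of Kit, a gene whose protein defines the LSK gate, was 4.9999, against 7.58 to 9.96 on the other LSK-Dot arrays. Results that rest on these arrays are given with and without them. The upper quartile also differed elsewhere, at 6.19 to 6.57 in GMP-Control, below LSK-Control at 6.60 to 6.76. In GMP-Dot it was 6.71 and 6.77 on K1190 and K1272, against 6.27 and 6.31 on K1359 and K1421. It was entered as a covariate in an alternative, and its part in the differences was otherwise not tested. Dot1l itself had levels of 5.62 to 6.60 in GMP-Dot and 6.55 to 6.95 in GMP-Control, and of 5.95 to 7.01 in LSK-Dot and 6.08 to 6.93 in LSK-Control. The sources used here do not place its probe set inside or outside the deletion, so these levels are no check on genotype. No detection calls were used, and the medians of the arrays, between 4.65 and 4.98, serve as a guide to dim signals.

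The promoters of F2r, Pdzk1ip1 and Procr are shown because these genes were called lower in GMP-Control than in LSK-Control under every alternative in which they were tested. Each sequence is the 250 bases before the gene's start, from RefSeq on GRCm38.p6, read 5′ to 3′ on the gene's strand, and capitals mark matches to the motifs searched. The F2r window is chr13:95618467-95618716 (minus strand), the Pdzk1ip1 window is chr4:115088458-115088707 (plus strand) and the Procr window is chr2:155750967-155751216 (plus strand).
F2r: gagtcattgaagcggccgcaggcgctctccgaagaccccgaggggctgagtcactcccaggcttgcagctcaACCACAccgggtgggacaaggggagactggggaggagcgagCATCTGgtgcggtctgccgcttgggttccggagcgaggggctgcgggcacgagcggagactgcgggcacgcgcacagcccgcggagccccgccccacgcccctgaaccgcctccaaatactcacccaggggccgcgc
Pdzk1ip1: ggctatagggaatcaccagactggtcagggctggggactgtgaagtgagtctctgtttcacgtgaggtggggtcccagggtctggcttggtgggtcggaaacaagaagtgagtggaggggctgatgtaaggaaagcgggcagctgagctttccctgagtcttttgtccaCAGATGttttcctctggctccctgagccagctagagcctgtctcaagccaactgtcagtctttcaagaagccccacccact
Procr: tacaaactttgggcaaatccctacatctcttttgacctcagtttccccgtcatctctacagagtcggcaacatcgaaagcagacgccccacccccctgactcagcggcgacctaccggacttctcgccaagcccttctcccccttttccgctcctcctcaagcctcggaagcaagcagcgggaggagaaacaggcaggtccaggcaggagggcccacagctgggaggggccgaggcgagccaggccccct

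Both strands were searched for 5 short motifs of factors known in blood and vessel cells. The E-box CAGATG occurred in the F2r window 137 bases before the start and in the Pdzk1ip1 window 81 bases before the start. In F2r it is on the opposite strand, so the printed strand reads CATCTG. The RUNX motif TGTGGT occurred in the F2r window 178 bases before the start, also on the opposite strand, so the printed strand reads ACCACA. Of the 32851 promoters of the same length in the table, 14.4% held the E-box and 14% the RUNX motif. The table held 10 promoters of 9 of the genes, 2 of them for Vldlr, while Esam was not matched. The ETS variant CAGGAAG was found for Cd34, Robo4 and Slamf1, against 10.8% of all promoters. The ETS motif CCGGAAG and the GATA motif AGATAA were found in 0 of the 10, against 6.91% and 9.99% of all promoters. A match is a description of letters, and a window without one says only that these letters are not in it.

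The first question was how the marker genes differ between the progenitors and the stem cell fraction. In control mice, 5 of the 10 genes were lower in GMP than in LSK cells and 0 were higher by limma (adjusted p under 0.05 over all genes). Among all genes 4.95% were called lower, 7.03% higher and 12% in either direction. The 5 were Procr, F2r, Vldlr, Pdzk1ip1 and Esam. The median log2 fold change of the 10 genes was -2.07, against 0.29 over all genes, and 9 of 10 had a value below 0, against 34.2% of all genes. An unadjusted p under 0.05 was reached by 8 of 10, against 33.8% of all genes. In whole sorted samples, fewer cells that express a gene and less RNA per cell cannot be told apart.

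**Figure D1:**
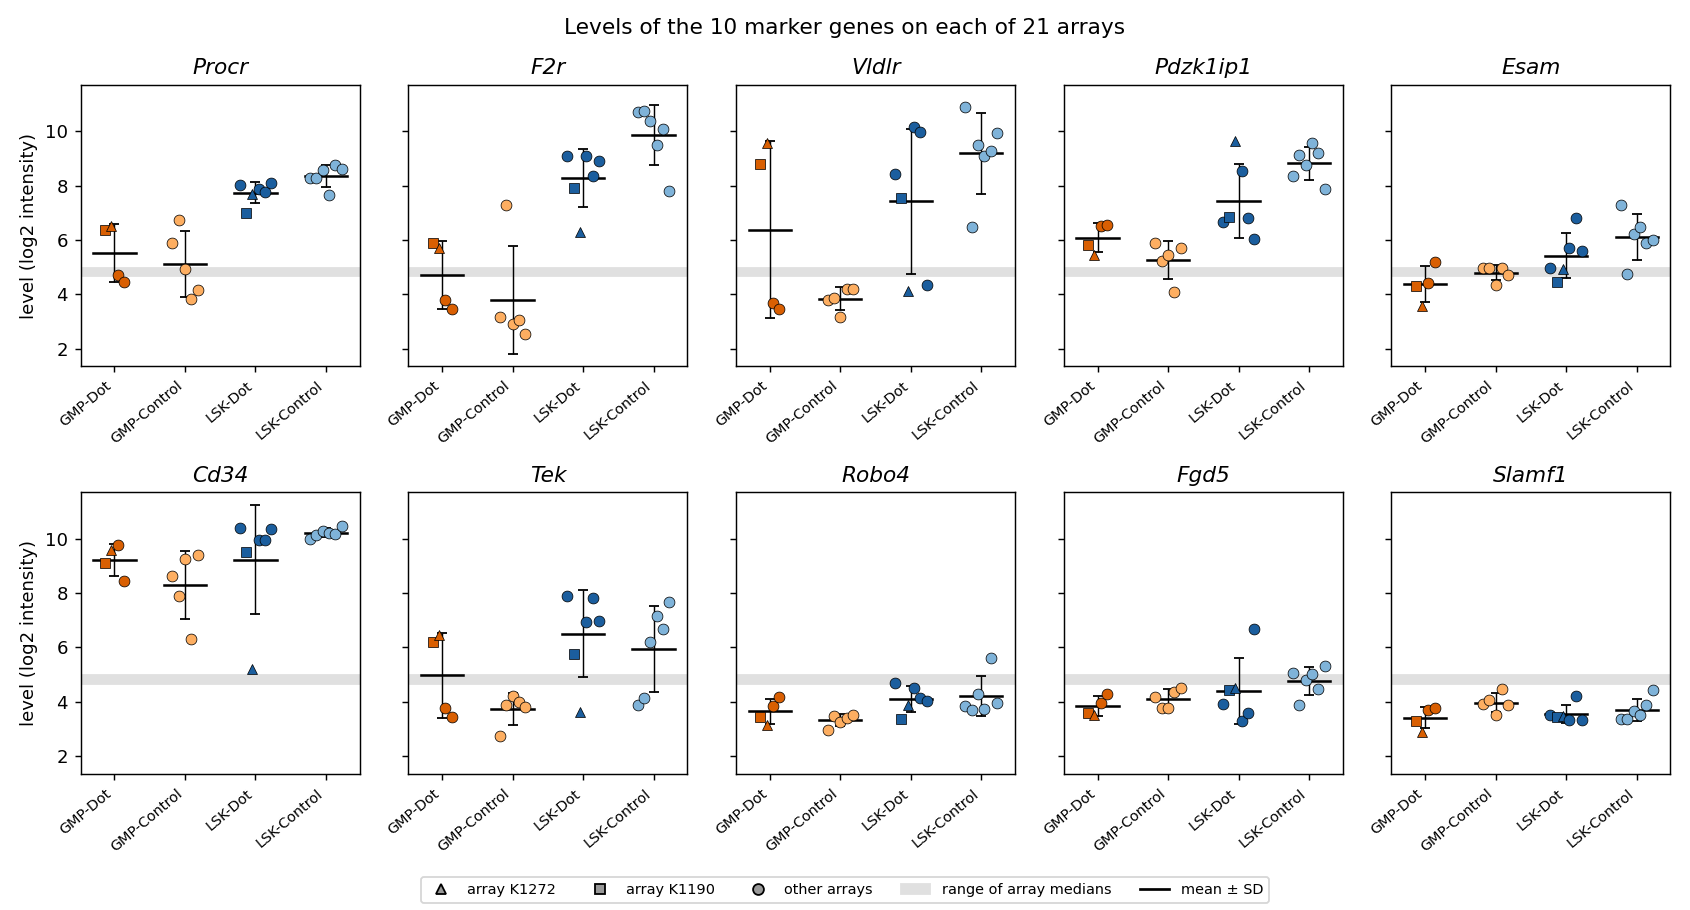
Log2 intensity (y axis) of each marker gene on each array, by group (x axis), with the group mean and SD as lines, and the range of the array medians as a grey band. Triangles are the arrays numbered K1272 and squares those numbered K1190. F2r and Procr lie above the band on every LSK array, while Slamf1 lies below the array's own median on all 21 arrays.

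Procr and F2r, the receptors of the coagulation system, were lower in GMP-Control with no overlap between the control groups. Procr had levels of 6.37, 6.50, 4.72 and 4.46 on GMP-Dot K1190, K1272, K1359 and K1421, and of 5.89, 6.75, 4.93, 3.81 and 4.17 on GMP-Control K1581, K1601, K1602, K1603 and K1604. In the LSK groups its lowest, median and highest levels were 6.99, 7.81 and 8.10 in LSK-Dot, and 7.64, 8.43 and 8.77 in LSK-Control. Every GMP array lay below every LSK array. Between the control groups its log2 fold change was -3.25 ± 0.46 (SE), which is 9.49-fold lower in GMP-Control, with a limma adjusted p of 0.000287. Procr lay below the array median on 2 of 5 GMP-Control arrays, so the size of this fold rests partly on dim signals.

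F2r had levels of 5.87, 5.69, 3.79 and 3.46 on the 4 GMP-Dot arrays in the same order, and of 3.15, 7.29, 2.91, 3.05 and 2.54 on the 5 GMP-Control arrays. Its lowest, median and highest levels were 6.30, 8.61 and 9.10 in LSK-Dot, and 7.80, 10.22 and 10.74 in LSK-Control. The control groups did not overlap, although GMP-Control K1601 came close to the lowest LSK-Control array. The log2 fold change between them was -6.08 ± 0.78 (SE), with an adjusted p of 0.00014, and -6.95 without K1601. F2r lay below the array median on 4 of 5 GMP-Control arrays, so the size of this difference is set by a dim signal and no fold is given. The second F2r probe set had -3.51 (adjusted p over probe sets = 0.000188) and placed K1601 at 4.10, close to the other GMP-Control arrays at 3.29 and above. The high value of K1601 was thus seen on 1 of the 2 F2r probe sets.

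Among the receptors for secreted ligands, Vldlr was called and Tek and Robo4 were not. Vldlr had levels of 8.80, 9.58, 3.68 and 3.44 on the GMP-Dot arrays, and of 3.79, 3.87, 3.17, 4.18 and 4.18 on the GMP-Control arrays. Its lowest, median and highest levels were 4.11, 7.98 and 10.14 in LSK-Dot, and 6.46, 9.37 and 10.88 in LSK-Control. All GMP-Control arrays were below their array medians, and no LSK-Control array was. The log2 fold change between the control groups was -5.34 ± 1.21 (SE, adjusted p = 0.00886), again measured against dim GMP-Control signals and given without a fold. The other 5 Vldlr probe sets ran in the same direction, from -2.31 to -0.30, and 1 of them passed the threshold over probe sets at -2.26 (adjusted p = 0.0293). The Vldlr call held in 35 of 38 alternatives and was lost, among others, with each array's upper quartile entered in the model, at -2.996 (adjusted p = 0.198).

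Tek had levels of 6.20, 6.45, 3.78 and 3.43 on the GMP-Dot arrays, and of 2.72, 3.90, 4.21, 3.98 and 3.82 on the GMP-Control arrays. Its lowest, median and highest levels were 3.64, 6.96 and 7.88 in LSK-Dot, and 3.86, 6.43 and 7.66 in LSK-Control. The control groups overlapped because LSK-Control K1553 and K1581, at 3.86 and 4.13, were as low as the GMP arrays. The log2 fold change between them was -2.22 ± 0.80 (adjusted p = 0.071). Over 38 alternatives it ran from -2.63 to -0.55 and was called in 6, among them the fit without LSK-Dot K1272 (adjusted p = 0.0249). That array is in neither group and enters through the shared spread.

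Robo4 was dim throughout, with means of 3.65 ± 0.46 in GMP-Dot (SD, n = 4), 3.33 ± 0.23 in GMP-Control (n = 5), 4.11 ± 0.47 in LSK-Dot and 4.20 ± 0.73 in LSK-Control (n = 6 each). The control groups did not overlap, with GMP-Control at 2.97 to 3.52 and LSK-Control at 3.71 to 5.63, but the log2 fold change of -0.87 ± 0.31 missed the threshold (adjusted p = 0.0705). It was called in 5 of 37 alternatives, with values over all 37 from -1.18 to -0.30. The fit without LSK-Dot K1272 was among those that called it (adjusted p = 0.043). In all, 6 of the 10 genes were lower in GMP-Control with no overlap, namely F2r, Procr, Pdzk1ip1, Vldlr, Cd34 and Robo4, against 3.43% of all genes.

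**Figure D2:**
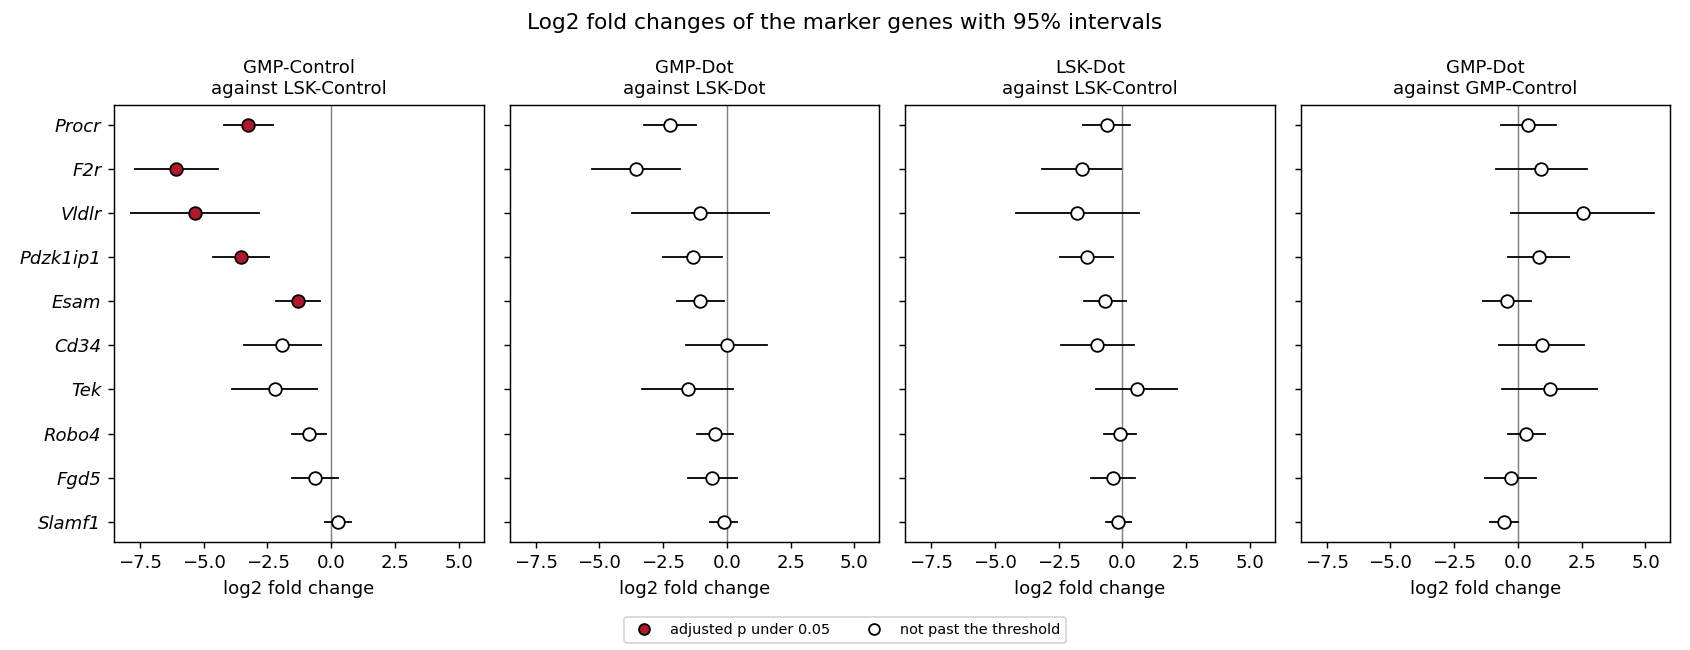
Log2 fold change (x axis) with its 95% interval for each marker gene (y axis), in 1 panel per comparison. Red points passed an adjusted p under 0.05, and all 5 of them are in the panel of GMP-Control against LSK-Control, led by F2r at -6.08.

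Pdzk1ip1 had levels of 5.82, 5.46, 6.50 and 6.55 on the GMP-Dot arrays, and of 5.90, 5.24, 5.43, 4.09 and 5.69 on the GMP-Control arrays. Its lowest, median and highest levels were 6.04, 6.83 and 9.64 in LSK-Dot, and 7.89, 8.94 and 9.56 in LSK-Control. No GMP array reached the LSK-Control range, whereas the LSK-Dot range ran into that of GMP-Dot. The log2 fold change between the control groups was -3.54 ± 0.52 (SE), or 11.7-fold lower in GMP-Control (adjusted p = 0.000368), and its second probe set had -2.25 (adjusted p over probe sets = 0.0075). Pdzk1ip1 lay below the array median on 1 of 5 GMP-Control arrays.

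Of the adhesion molecule Esam and the sialomucin Cd34, Esam was called. Esam had levels of 4.31, 3.58, 4.41 and 5.19 on the GMP-Dot arrays and of 4.98, 4.98, 4.35, 4.98 and 4.70 on the GMP-Control arrays, and the 3 equal values are identical in the deposited table. Its lowest, median and highest levels were 4.45, 5.29 and 6.82 in LSK-Dot, and 4.73, 6.10 and 7.29 in LSK-Control. The control groups overlapped at LSK-Control K1581. Esam was lower in GMP-Control, with a log2 fold change of -1.30 ± 0.41 (adjusted p = 0.0462), a call that was made in 17 of 38 alternatives and lost on leaving out any single GMP-Control array.

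Cd34 was bright in both cell types, with the lowest level, 5.20, on LSK-Dot K1272. It had levels of 9.10, 9.57, 9.78 and 8.43 on the GMP-Dot arrays, and of 8.63, 7.90, 9.25, 6.30 and 9.40 on the GMP-Control arrays. Its lowest, median and highest levels were 5.20, 9.96 and 10.38 in LSK-Dot, and 9.98, 10.20 and 10.48 in LSK-Control. LSK-Control was tight and lay above all GMP arrays. The log2 fold change between the control groups was -1.92 ± 0.72 (adjusted p = 0.0801). Over 38 alternatives it ran from -2.19 to -0.24 and was called in 5, among them the fit without LSK-Dot K1272 (adjusted p = 0.0034). That fit called 8 of the 10 genes, and 5531 of all 18194 genes.

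Fgd5 and Slamf1 did not separate the cell types. Fgd5 averaged 3.84 ± 0.36 in GMP-Dot (SD, n = 4), 4.12 ± 0.35 in GMP-Control (n = 5), 4.40 ± 1.21 in LSK-Dot and 4.76 ± 0.51 in LSK-Control (n = 6 each), and its log2 fold change between the control groups was -0.65 ± 0.43 (adjusted p = 0.275). Slamf1 averaged 3.42 ± 0.40 in GMP-Dot, 3.97 ± 0.34 in GMP-Control, 3.54 ± 0.34 in LSK-Dot and 3.70 ± 0.41 in LSK-Control, with a log2 fold change of 0.27 ± 0.24 (adjusted p = 0.401). Slamf1 lay below the array median on all 21 arrays, and its other probe sets had -0.12 and -0.22. At this signal a difference in Slamf1 was not detectable, which does not show that its levels are alike.

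**Figure D3:**
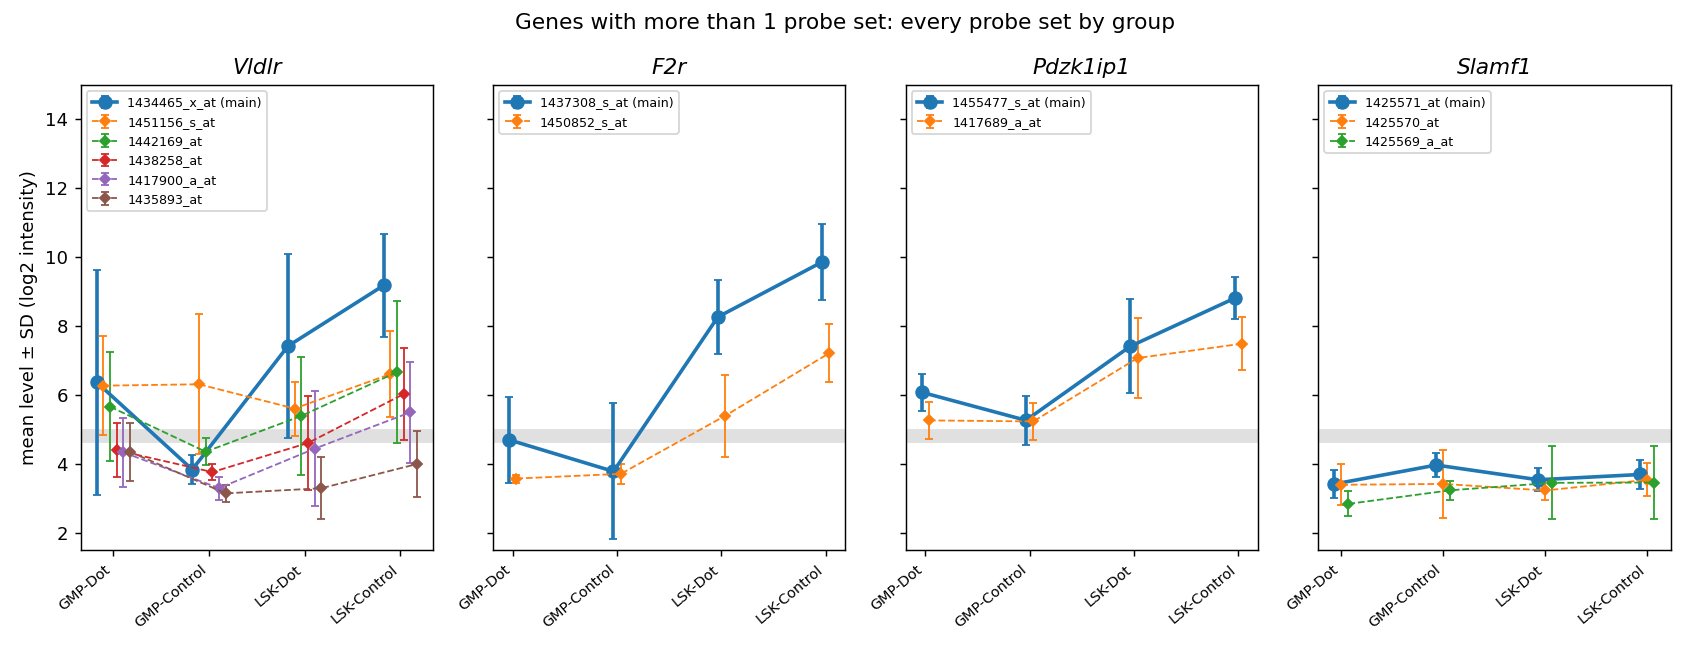
Mean log2 intensity with SD (y axis) by group (x axis) for every probe set of the 4 genes that have more than 1, with the brightest probe set as a thick line. For F2r both probe sets have their lowest means in the GMP groups, while the means of the 3 Slamf1 probe sets stay below the grey band of array medians.

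The known partners of these genes were followed as lists. Angpt1, the ligand of Tek, had a log2 fold change of -5.11 ± 0.63 (SE) in GMP-Control against LSK-Control (adjusted p = 0.000121), and was the 1 gene called of 7 measured in the angiopoietin and Tie list. Of 9 SLAM family genes 0 were higher and 2 lower, Cd244a at -4.99 (adjusted p = 0.000799) and Cd84 at -1.20 (adjusted p = 0.0343). Of 7 sialomucins and selectin ligands 1 was lower, Emcn, an endothelial sialomucin, at -3.21 (adjusted p = 0.000576). Of 9 junctional adhesion molecules and their partners 1 was lower, Cd47 at -1.70 (adjusted p = 0.00282).

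The thrombin and protein C list ran both ways. Of its 10 measured genes 1 was lower, the thrombin receptor relative F2rl2 at -1.76 (adjusted p = 0.0357), and 3 were higher, Tfpi, the inhibitor of tissue factor, at 1.16 (adjusted p = 0.00522), the coagulation factor gene F10 at 1.84 (adjusted p = 0.0252) and F3, tissue factor itself, at 0.73 (adjusted p = 0.0294). Of 10 Slit and Robo genes 3 were higher, Slit3 at 1.13, Robo3 at 0.75 and Unc5b at 0.87, and 1 lower, Srgap3 at -0.75. Limma called 0 of 8 reelin and lipoprotein receptor genes (2 at an unadjusted p under 0.05), 0 of 9 genes around Cdc42 (2 unadjusted) and 0 of 7 genes around PDZK1 (0 unadjusted). Over all partner lists together 13 of 76 genes were called between the control groups, against 12% of all genes. Limma called 0 of 76 in each comparison with a Dot group. There 8 had an unadjusted p under 0.05 in GMP-Dot against LSK-Dot, 9 in GMP-Dot against GMP-Control, 6 in LSK-Dot against LSK-Control and 10 for the difference of effects, against 7.28%, 13.9%, 5.61% and 13.6% of all genes.

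Markers of other cells were read beside these values. Of 16 other stem cell surface markers 5 were lower in GMP-Control and 0 higher, Adgrg1 at -2.83, Tgfbr3 at -2.59, Kit at -2.63, Itga6 at -1.91 and Alcam at -1.94, with a list median of -0.69, while 4.95% of all genes were lower and 7.03% higher. Of 22 endothelial markers 2 were lower and 1 higher, against 12% of all genes called either way, with a median of 0.35, against 0.29 over all genes. The mean level of the endothelial list was 5.001 to 5.32 on the GMP-Control arrays and 5.07 to 5.32 on the LSK-Control arrays. Cdh5, which encodes VE-cadherin, and Kdr, the main VEGF receptor, were below the array median on all arrays of both groups. Other genes of the list were bright. Pecam1 was at 7.79 to 9.36 in LSK-Control and 3.40 to 8.43 in GMP-Control, and Erg at 9.33 to 11.70 and 7.20 to 9.56.

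Between the Dot1l-deleted groups, GMP-Dot against LSK-Dot, limma called 0 of 10, where 0.143% of all genes were called. All 10 log2 fold changes were below 0, against 48.6% of all genes, but Cd34 was at -0.00939 and turned above 0 in 11 alternatives, and Slamf1 at -0.13 and Vldlr at -1.05 each did in 4. The values had a median of -1.04, against 0.01 over all genes. An unadjusted p under 0.05 was reached by 4 of 10, against 7.28% of all genes. Procr had -2.22 ± 0.49 (SE, adjusted p = 0.0796) and F2r had -3.56 ± 0.83 (adjusted p = 0.1004), and these were the 2 genes whose groups did not overlap, against 0.929% of all genes. On the second F2r probe set, at -1.82, the groups overlapped, and on the second Pdzk1ip1 probe set, at -1.81, they did not. Other Vldlr probe sets had 0.66, 0.27 and 1.05 as well as -0.21 and -0.11, and those of Slamf1 had 0.17 and -0.61. Pdzk1ip1 had -1.33 ± 0.56, Esam -1.04 ± 0.44 and Tek -1.54 ± 0.85, all with adjusted p of 0.572 or more.

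This count depended on the arrays that stood apart. Without GMP-Dot K1190 and K1272 and LSK-Dot K1272, 4 of the genes were lower in GMP-Dot, Procr at -3.15 (adjusted p = 0.012), F2r at -5.04 (adjusted p = 0.0143), Tek at -3.47 (adjusted p = 0.0284) and Vldlr at -4.52 (adjusted p = 0.0355). Without the 2 GMP-Dot arrays alone, Procr was the gene called, at -3.14 (adjusted p = 0.0233). Without LSK-Dot K1272 alone it was F2r, at -3.96 (adjusted p = 0.0335), and without GMP-Control K1601, which enters through the shared spread, both F2r (adjusted p = 0.0275) and Procr (adjusted p = 0.0366) were called. These fits were chosen after the data had been seen, apart from those that leave out 1 array. Over all genes the alternatives called between 0 and 1554 in this comparison.

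The effect of Dot1l deletion within GMP was the next question. Limma called 0 of the 10 genes in GMP-Dot against GMP-Control, where 0.143% of all genes were called, and 0 of 10 had an unadjusted p under 0.05, against 13.9% of all genes. The median log2 fold change was 0.61, against -0.20 over all genes, and 7 of 10 were above 0, while 65.7% of all genes were below 0. Vldlr had the largest value among the 10, at 2.53 ± 1.34 (SE, adjusted p = 0.386), followed by Tek at 1.24 ± 0.89 (adjusted p = 0.487), Cd34 at 0.92 ± 0.80 (adjusted p = 0.561) and F2r at 0.91 ± 0.86 (adjusted p = 0.591). Slamf1 had -0.55 ± 0.27 (adjusted p = 0.361).

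The GMP-Dot group held a split for 4 of the genes, between the same arrays as for the upper quartile. K1190 and K1272 were high for Vldlr, Tek, F2r and Procr, while K1359 and K1421 lay within the GMP-Control range. For F2r that range reached 7.29 through K1601 alone. The other GMP-Control arrays were at 2.54 to 3.15 for F2r, below K1359 and K1421 at 3.79 and 3.46. For F2r and Procr, GMP-Control K1601 was higher still than the pair, and without it these genes had 1.79 and 0.82. Without both arrays the log2 fold changes were -0.28 for Vldlr, -0.12 for Tek, -0.16 for F2r and -0.52 for Procr. Without K1190 alone they were 1.73, 0.83, 0.53 and 0.12 in the same order, and without K1272 alone 1.46, 0.75, 0.58 and 0.08. The high Vldlr values of the pair were also seen on some of its other probe sets. On 1 of them the pair had 6.64 and 7.30, against 3.91 and 4.81 on the other 2 GMP-Dot arrays and 3.79 to 4.84 in GMP-Control. On another it had 4.69 and 5.61, against 3.62 and 3.44 on the other 2 and 2.74 to 3.61 in GMP-Control. A further Vldlr probe set had 4.35 and 5.50 on the pair, against 4.10 and 3.66 on the other 2 and 3.53 to 4.04 in GMP-Control. The remaining Vldlr probe sets did not set the pair apart. On 1 of these K1421 was at 4.54 and K1190 at 4.52. On the other GMP-Control K1603, at 9.83, lay above the pair, at 7.09 and 7.78. The second F2r probe set did not show the split, at 3.60, 3.74, 3.48 and 3.50 in GMP-Dot and 3.29 to 4.10 in GMP-Control. Array quality weights estimated gene by gene gave the pair 8.89 and 2.32, against 0.25 and 0.30 for K1359 and K1421. The default estimate of the weights stopped before it converged and gave K1190 a weight of 0.00801, the lowest of the 21 arrays, and K1272 4.10. With the weights by gene 5 genes were called in GMP-Dot against GMP-Control, Vldlr at 4.92, Tek at 2.59, F2r at 2.24 and Procr at 1.06, all higher, and Slamf1 at -0.63, while the default weights called Vldlr, Tek and Slamf1. Over all 18194 genes the alternatives called between 8 and 7152 in this comparison, and 9 to 390 with 1 array left out. The calls under weights are thus not read as particular to these genes.

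**Figure D4:**
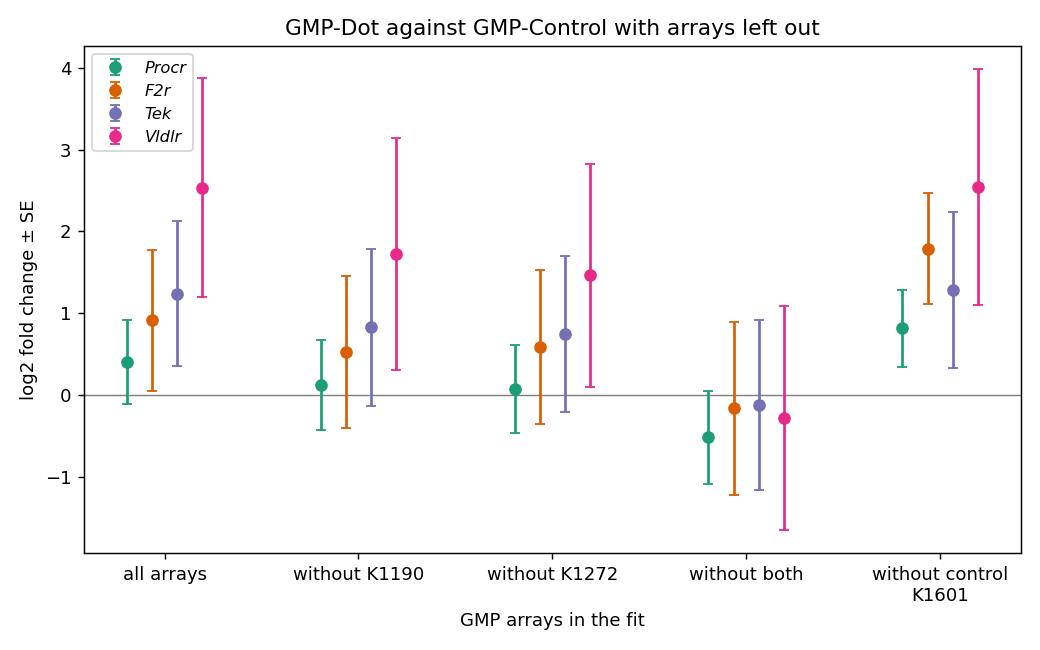
Log2 fold change of GMP-Dot against GMP-Control with its SE (y axis) for Procr, F2r, Tek and Vldlr, by the arrays in the fit (x axis). All 4 values are above 0 with all arrays and below 0 without GMP-Dot K1190 and K1272, where Vldlr is at -0.28.

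Other genes were high on the same pair of arrays. Angpt1 had 6.20 and 6.58 on K1190 and K1272, against 4.60 and 4.27 on K1359 and K1421 and 4.05 to 4.86 in GMP-Control. Of the stromal markers, Dcn (decorin) had 8.21 and 8.91 on the pair, against 5.15 and 5.06 on K1359 and K1421 and 4.93 to 6.06 in GMP-Control. Col3a1 had 6.52 and 7.23, against 4.37 and 4.13 on the other 2 GMP-Dot arrays and 3.67 to 5.66 in GMP-Control. Lum (lumican) had 5.04 and 5.93, against 3.31 and 2.84 on the other 2 and 2.81 to 4.04 in GMP-Control. Col1a1, another stromal marker, had 6.27 and 6.04 on the pair, against 5.91 and 5.97 on the other 2 and 5.49 to 6.13 in GMP-Control. Angpt1, Dcn, Col3a1 and Lum were thus high on the same arrays as the 4 markers.

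Over the whole list of 12 stromal markers the mean level was 5.39 on K1190, 5.61 on K1272, 5.19 on K1359 and 4.98 on K1421, against 4.95 to 5.75 in GMP-Control. Limma called 0 of the 12 in GMP-Dot against GMP-Control, with 4 at an unadjusted p under 0.05, against 13.9% of all genes. Of the 12, 7 had a log2 fold change below 0, against 65.7% of all genes, with a median of -0.18, against -0.20 over all genes. The list of 22 endothelial markers had means of 4.91 to 5.17 in GMP-Dot and 5.001 to 5.32 in GMP-Control. Cdh5 was at 3.85 and 4.01 on the pair, against 3.94 and 4.35 on the other GMP-Dot arrays, and Kdr at 3.31 to 3.86 in GMP-Dot, below the array medians. Pecam1 and Erg were brighter, at 5.94 to 8.10 and 8.79 to 9.93 in GMP-Dot. The part of the stromal genes in the high values was not tested.

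Cd244a behaved differently from the 4 markers. It had 8.13, 7.88 and 8.01 on GMP-Dot K1190, K1272 and K1359, but 4.39 on K1421, against 3.61 to 4.98 in GMP-Control. Its log2 fold change was 2.87 ± 0.90 (SE, adjusted p = 0.201), which missed the threshold.

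Within LSK cells, limma called 0 of the 10 genes in LSK-Dot against LSK-Control, where 0% of all genes were called. An unadjusted p under 0.05 was reached by 2 of 10, against 5.61% of all genes, and 9 of 10 log2 fold changes were below 0, against 41.6% of all genes. No gene of the 10 separated the groups, against 0.143% of all genes that were lower with no overlap. The median was -0.65, against 0.06 over all genes. Levels of some marker lists of other cells are given for the same groups, where limma called no gene of any list. Of 8 late neutrophil markers limma called 0, with 7 at an unadjusted p under 0.05 and all 8 below 0, at a median of -2.35. Their mean level was 5.89 to 7.87 in LSK-Dot and 7.71 to 12.08 in LSK-Control. The 9 GMP markers had a median of 0.61, with mean levels of 7.57 to 10.29 in LSK-Dot and 7.65 to 9.54 in LSK-Control. LSK-Control K1581, the array with the highest neutrophil level, was the lowest of its group for 5 of the 10 genes, Vldlr, Esam, Robo4, Fgd5 and Slamf1. It was the highest of its group for F2r, at 10.74. Of the 5 genes, Slamf1 lay below the array median on 6 of 6 LSK-Control arrays and Robo4 on 5 of 6. The part of the neutrophil and GMP markers in the values was not tested. Pdzk1ip1 had -1.39 ± 0.50 (SE, adjusted p = 0.647) and F2r -1.60 ± 0.74 (adjusted p = 0.882). Vldlr had -1.76 ± 1.15, Cd34 -0.99 ± 0.69, Esam -0.68 ± 0.39, Procr -0.62 ± 0.44 and Tek 0.56 ± 0.76.

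The second F2r probe set had a lower mean in LSK-Dot as well, 5.40 ± 1.18 in LSK-Dot and 7.22 ± 0.83 in LSK-Control (SD, n = 6 each). Its log2 fold change was -1.82 ± 0.44 (SE), which missed the threshold over all probe sets (adjusted p = 0.268). The second Pdzk1ip1 probe set had -0.42. LSK-Dot K1272 pulled several values. Without it Cd34 had -0.18, Tek 1.14, F2r -1.21, Vldlr -1.10 and Pdzk1ip1 -1.84 (adjusted p = 0.15). K1272 was the highest LSK-Dot array for 7 of 10 marker lists of other cells and progenitors. The endothelial list averaged 5.73 there, against 4.73 to 5.09 on the other LSK-Dot arrays, the stromal list 5.57, against 4.47 to 4.69, the megakaryocyte list 6.07, against 4.69 to 5.42, and the T and NK cell list 4.88, against 3.68 to 3.93. The array median was also higher, 4.98 against 4.67 to 4.75. Endothelial genes did not run 1 way on it. Cdh5 was at 5.56, against 3.43 to 3.94 on the other LSK-Dot arrays, but Pecam1 was at 4.55, against 7.46 to 8.99, Erg at 8.09, against 9.46 to 11.76, and Kdr at 3.47, within 3.15 to 3.81. The part of these lists in the values of K1272 was not tested. With array quality weights by gene, which gave K1272 a weight of 0.0718, Pdzk1ip1 was called lower in LSK-Dot, at -2.01 (adjusted p = 0.00208). The default weights, which did not converge, also called it (adjusted p = 0.00114). Over all genes the alternatives called between 0 and 663 in this comparison.

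Whether the Dot1l effect differed between GMP and LSK was tested with an interaction term. Limma called 0 of the 10 genes, where 0.033% of all genes were called, and 3 had an unadjusted p under 0.05, against 13.6% of all genes. The values, GMP effect minus LSK effect, were 2.21 ± 0.76 for Pdzk1ip1 (SE, adjusted p = 0.273), 4.29 ± 1.77 for Vldlr (adjusted p = 0.328) and 2.51 ± 1.13 for F2r (adjusted p = 0.35). The second Pdzk1ip1 probe set had 0.44 ± 0.70 and the second F2r probe set 1.69 ± 0.67, while the other Vldlr probe sets ran from 0.96 to 2.58. The median over the 10 genes was 0.85, against -0.26 over all genes, and 1 of 10 values was below 0, against 63.8% of all genes. Without GMP-Dot K1190 and K1272 the value was 1.48 for Vldlr, 1.43 for F2r and 2.65 for Pdzk1ip1, and without LSK-Dot K1272 as well it was 0.82, 1.04 and 3.09.

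Across the 4 groups, 6 of the genes had 1 order of mean levels, with GMP-Control lowest, then GMP-Dot, then LSK-Dot, and LSK-Control highest. These were Procr, F2r, Vldlr, Pdzk1ip1, Cd34 and Robo4. The share of all genes with the same order was not computed. No neighbouring pair of groups in that order passed the test for any of the 6. Without the pair K1190 and K1272 the step between the GMP groups turned for Procr, F2r and Vldlr, at -0.52, -0.16 and -0.28. Pdzk1ip1 then had 1.26, Cd34 0.81 and Robo4 0.69. For F2r this value also depends on GMP-Control K1601, at 7.29. The other GMP-Control arrays were at 2.54 to 3.15 for F2r, below GMP-Dot K1359 and K1421 at 3.79 and 3.46. With all arrays the second Pdzk1ip1 probe set had 0.03 for GMP-Dot against GMP-Control. The means of Cd34 in GMP-Dot and LSK-Dot, 9.22 and 9.23, were nearly equal, and their order turned in 11 alternatives. Tek was highest in LSK-Dot, Esam and Fgd5 were lowest in GMP-Dot, and Slamf1 was highest in GMP-Control.

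The genes also varied together to different degrees. Over the 21 arrays, which share their groups and their normalization, Procr and F2r had a Pearson correlation of 0.927, and 0.656 after the group means were removed. Tek and Vldlr had 0.719 and 0.613. Procr and Pdzk1ip1 had 0.719 over all arrays but -0.08 once the group means were removed. The 6 other genes most like the mean standardized profile of the 10 were Sall2 at 0.925, Gimap6 at 0.924, Cd96 at 0.923, Myct1 at 0.914, Gimap1 at 0.911 and H2-Ob at 0.911, all over 21 arrays. After the group means were removed these correlations were 0.715, 0.617, 0.652, 0.756, 0.567 and 0.650 in the same order. Myct1, the one with the highest of these, had 6.94 and 7.63 on GMP-Dot K1190 and K1272, against 4.70 and 4.20 on K1359 and K1421 and 3.75 to 5.36 in GMP-Control.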

How the data were processed

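The authors deposited 1 table of array intensities on a linear scale for sorted LSK and GMP cells, and RMA is the method in the submitters' processing notes, whose version is unstated. That the scale is linear follows from the array medians of about 25.2 to 31.5. The sources used here name no genome build, and precision is limited by the number of arrays. From the deposited intensity the log2 value was computed, with no pseudocount. Of 45101 probe sets the platform annotation gives 34958 a single symbol, 932 several and 9211 none, and 34754 matched a GRCm38.p6 gene table by Entrez identifier, which changed 0 symbols.

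Groups came from the titles. The test was limma 3.58.1 in R 4.3.3 (lmFit, contrasts.fit, eBayes), 2-sided, with 4 group means over 21 arrays and Benjamini-Hochberg adjustment over 18194 genes at 0.05. Other probe sets were adjusted over probe sets. The script was tested on simulated data. Members, lists and motifs were chosen with earlier results of these data known. Named were all members, list genes with the smallest p or past the threshold that are singled out, and the 6 most alike genes. Genes shown by array beside the members (Dcn, Col3a1, Col1a1, Lum, Cdh5, Kdr, Pecam1, Erg, Kit, Cd244a and Myct1) were chosen after their values were seen.

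K numbers shared by LSK and GMP arrays were checked for pairing. Over 9 shared numbers the correlations of deviations from the group means ran from -0.40 to 0.27, and 1 was over 0.1, so the numbers were not treated as pairs. The labels do not say whether a number marks 1 mouse. Alternatives were other normalization, filters, probe set choices, variances, weights, blocks and left-out arrays.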

Additional observations from a re-analysis of the deposited data

Results flagged for a closer look

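Of the 40 sets of values (10 genes in 4 groups), 7 held a sample far from the rest of its group. Chance gives about 1 in 20 groups if the sets are independent, but these sets share their arrays. The share over all genes was not computed, so the count is not read as particular to these genes. In GMP-Control, F2r was at 7.29 on K1601, against 2.54 to 3.15 on the other arrays. In LSK-Dot, Cd34 was at 5.20 on K1272, against 9.52 to 10.38, and Procr was at 6.99 on K1190, against 7.70 to 8.10. In GMP-Control, Tek was at 2.72 on K1581, against 3.82 to 4.21. Among dimmer genes, Fgd5 was at 6.68 on LSK-Dot K1422, against 3.31 to 4.51, Slamf1 at 4.22 on LSK-Dot K1421, against 3.31 to 3.51, and Robo4 at 5.63 on LSK-Control K1603, against 3.71 to 4.29.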

How the results depend on the processing

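Of 35 other settings 21 left out 1 array each, and 3 more were added after seeing the data. Over them 1716 of 1840 values kept direction and side of the threshold, and 51 turned direction, 0 of which were called in either fit. For GMP-Control against LSK-Control, where 5 genes were called, the count was 4 to 8 with 1 array left out (8 without LSK-Dot K1272), 8 with array weights or 3 arrays left out, 3 with the upper quartile as covariate and 1 of 7 tested without shared-type probe sets, which leaves Procr, F2r and Pdzk1ip1 untested. With the K number as a replicate block it was 3 (a level per number) or 4 (a random block). The other comparisons fitted had 0 called members under this pairing, as without it. The level per number was not fitted for GMP-Dot against GMP-Control or LSK-Dot against LSK-Control. With array weights, default or gene by gene, counts were 3 or 5 for GMP-Dot against GMP-Control, 2 or 4 for GMP-Dot against LSK-Dot, 1 in LSK cells and 4 for the difference. Over all genes the alternatives called up to 7054 between the control groups and 7152 for GMP-Dot against GMP-Control. The highest were 1554 for GMP-Dot against LSK-Dot, 663 in LSK cells and 4236 for the difference. The member counts are thus not read as particular to the markers. Without 3 arrays GMP-Dot against LSK-Dot gave 4, without both GMP-Dot arrays 1, with the mean of probe sets 1, and with 1 array left out 0 to 2. All other counts with 1 array left out were 0. Over all genes, leaving out 1 array gave 1111 to 5531 calls for GMP-Control against LSK-Control (2180), 9 to 390 for GMP-Dot against GMP-Control (26), 4 to 110 for GMP-Dot against LSK-Dot (26), 1 to 21 for the difference (6) and 0 to 33 in LSK cells (0).

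Without K1190 and K1272, GMP-Dot against GMP-Control gave -0.28 for Vldlr, -0.12 for Tek, -0.16 for F2r, -0.52 for Procr, 0.0028 for Esam and 0.0055 for Fgd5, and Slamf1 against LSK-Dot gave 0.19, or 0.17 without LSK-Dot K1272 too (-0.24 to 0.0468 with 1 array left out). Cd34 in GMP-Dot against LSK-Dot gave 0.0033 on centring, 0.0075 on quantile normalization, 0.56 in the replicate block, 0.603 with the covariate and -0.82 to 0.25 with 1 array left out. Vldlr there gave 0.47 and 0.61 with the weights, 0.104 over probe sets and 0.27 without shared-type ones. The difference for Tek gave -1.26, -0.68 and -0.38 (3 arrays out, 2 out, covariate). For Esam it gave -0.45, -0.0354 with weights, -0.0427 in the replicate block and -0.0131 to 0.54 with 1 array left out, and for Fgd5 -0.103 and -0.12 with weights, -0.0192 with a pseudocount and -0.14 to 0.54. Robo4 in LSK cells ran from -0.21 to 0.196, and Slamf1 between control groups gave -0.0233 over probe sets. The cause was not tested.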
